A study of Drosophila melanogaster with 2 samples.

Results

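The heat shock genes and Hsf of Drosophila melanogaster were described in peak lists of a chromatin immunoprecipitation experiment (ChIP-seq) on the transcription factor Senseless-2. The 10 genes were Hsp22, Hsp23, Hsp26, Hsp27, Hsp68, Hsp70Aa, Hsp70Ba, Hsp83, Hsc70-4 and Hsf, out of 13968 protein-coding genes. They were listed by name and selected on the signal and score of their peaks in these same lists, so every count and signal below is a description and no test was made. A gene's domain was its body plus 2 kb upstream, and a gene held a peak when the peak's summit, the position of highest enrichment, lay in the domain. The chromatin came from whole embryos of 0 to 24 h of transgenic flies carrying a sens-2-eGFP fusion, was sonicated to fragments of 200 to 800 bp, and was precipitated with antibody to GFP. Both samples belonged to 1 group of 2 biological replicates, so there was no comparison between conditions. The labels name no heat treatment, and an input library was not analysed here. Such embryos mix many cell types and stages, and peak lists hold no expression values against which the labelled stage could be checked.

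Heat shock proteins are chaperones that keep other proteins folded. Cells make more of them when heat releases the heat shock factor, Hsf, to bind heat shock elements, which are runs of alternating GAA and TTC units with 2 bases between units. Before any heat, these promoters are known in flies for GAGA factor bound to GA repeats and for an RNA polymerase paused just inside the gene. Senseless-2 is a zinc-finger protein related to Senseless, which directs the formation of sensory organs and has AAATCA as its core motif.

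The sequences that carry what follows were all read from Release 6 of the genome (the coordinates of dm6) and are printed on the strand of the gene. The first set is the sequence under the Hsp27 peak, the strongest among the 10 genes, at chr3L:9383828-9383996, and the 200 bases before the outer start of Hsp26, at chr3L:9377428-9377627. Capitals mark GAGAG or its complement CTCTC, the word of GAGA factor.
Hsp27: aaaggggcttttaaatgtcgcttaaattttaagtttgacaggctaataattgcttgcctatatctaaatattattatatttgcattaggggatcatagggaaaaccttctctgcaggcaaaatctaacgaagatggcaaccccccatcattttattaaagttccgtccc
Hsp26: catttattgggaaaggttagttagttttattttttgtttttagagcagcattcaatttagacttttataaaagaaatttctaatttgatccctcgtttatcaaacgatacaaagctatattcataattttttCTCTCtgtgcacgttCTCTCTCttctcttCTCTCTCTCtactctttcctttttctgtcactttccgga
The second set comes from Hsp83. Its heat shock elements beside the promoter summit (chr3L:3193138-3193165) are in capitals throughout, 4 overlapping runs of 3 units with 1 mismatch each. Under the intronic peak (chr3L:3194226-3194310), capitals mark AAATCA.
Hsp83 elements: GAAGCCTCTAGAAGTTTCTAGAGACTTC
Hsp83 intron: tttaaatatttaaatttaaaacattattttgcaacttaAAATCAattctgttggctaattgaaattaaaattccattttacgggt
The third set is the 250 bases before the start of Hsp70Ba (chr3R:12467777-12468026) and of its near copy Hsp70Aa (chr3R:11956545-11956794), shown because Hsp70Ba had a peak and Hsp70Aa had none. Capitals mark runs of 3 heat shock units without mismatch. Hsp70Ba had another such run from 276 to 264 bp before its start, outside the printed bases. The annotated starts also differ, with the nearest TATAAA 49 to 44 bp before the start of Hsp70Ba and 30 to 25 bp before that of Hsp70Aa.
Hsp70Ba: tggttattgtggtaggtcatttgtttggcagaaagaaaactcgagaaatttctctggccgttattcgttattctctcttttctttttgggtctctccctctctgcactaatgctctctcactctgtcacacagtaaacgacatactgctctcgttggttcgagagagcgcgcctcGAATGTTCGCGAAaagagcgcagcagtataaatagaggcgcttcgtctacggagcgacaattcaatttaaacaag
Hsp70Aa: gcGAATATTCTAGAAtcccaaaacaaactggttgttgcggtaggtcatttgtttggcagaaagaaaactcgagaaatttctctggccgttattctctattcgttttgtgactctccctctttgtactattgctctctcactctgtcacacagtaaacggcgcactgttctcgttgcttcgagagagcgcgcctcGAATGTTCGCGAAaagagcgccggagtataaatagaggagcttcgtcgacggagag
The last is the 250 bases before Hsp68 (chr3R:24057311-24057560), marked in the same way. It held 3 overlapping elements without mismatch and no peak that passed the threshold.
Hsp68: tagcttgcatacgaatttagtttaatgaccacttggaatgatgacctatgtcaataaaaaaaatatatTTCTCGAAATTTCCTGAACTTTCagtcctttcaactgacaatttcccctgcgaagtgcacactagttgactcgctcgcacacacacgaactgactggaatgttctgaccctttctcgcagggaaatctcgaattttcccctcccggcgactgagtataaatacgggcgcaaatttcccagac

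The values come from 8 lists of peaks on dm6. Each list gives a signal per peak on a scale of its own and a score made from the irreproducible discovery rate, and the thresholded lists hold scores of 830 or more, up to 1000. The conservative list over both replicates had 2899 peaks, 2883 of them on the assembled chromosomes, with a median signal of 78.6. The thresholded list of replicate 1 had 1990 peaks with a median signal of 60.5, and that of replicate 2 had 1643 peaks with a median signal of 46.4. The longer ranked lists also hold peaks below the threshold, 144164 over both replicates, 118653 in replicate 1 and 94514 in replicate 2. A second ranked list over both replicates had 147493, and values over both replicates come from the first, which matches the conservative list, unless the other is named. Read depth is unknown from these lists.

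Of the 10 genes, 4 held a summit of the conservative list, namely Hsp22, Hsp26, Hsp27 and Hsp83, with 5 summits in all. Among all protein-coding genes the share was 17.9%. The other thresholded list over both replicates held the same 4 genes, against 19.1% of protein-coding genes. Each replicate's own list held these 4 genes and 5 summits as well, against 13.5% of protein-coding genes in replicate 1 and 11.9% in replicate 2. All 4 genes had a summit within 500 bp of a transcript start, as did 1483 (59.3%) of the 2500 protein-coding genes with a summit in their domain, and 10.6% of all protein-coding genes. Since the genes were selected on the signal and score of their peaks, nothing is read from their count against all genes. Hsp23, Hsp68, Hsp70Aa, Hsp70Ba, Hsc70-4 and Hsf held none in any of the 4 thresholded lists.

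**Figure D1:**
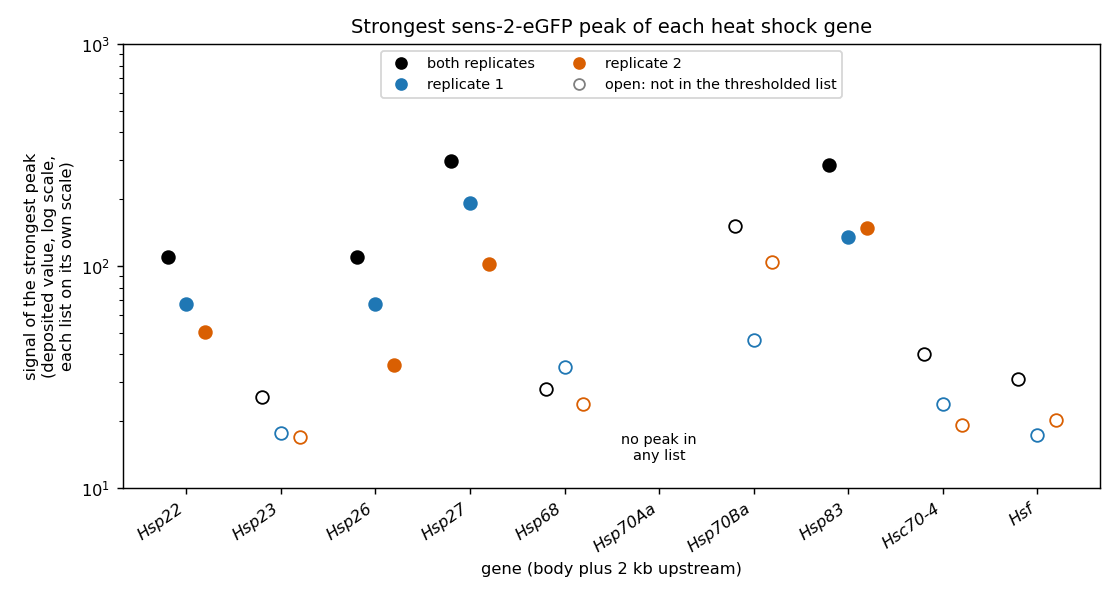
Signal of the strongest ranked peak in the domain of each of the 10 genes (log axis), in the list over both replicates (black), replicate 1 (blue) and replicate 2 (orange), with filled points for peaks in the matching thresholded list and open points for peaks outside it. Hsp22, Hsp26, Hsp27 and Hsp83 are filled in all 3 lists, Hsp70Ba is open although its signal over both replicates was 152, and Hsp70Aa has no point.

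The small heat shock proteins, which bind unfolding proteins without using ATP, were represented by Hsp22, Hsp23, Hsp26 and Hsp27, neighbours in the cluster at 67B on chromosome 3L. Hsp27 (FBgn0001226, chr3L:9384063-9385694) had the strongest peak of the 10 genes. Its signal was 298 over both replicates, rank 100 of 2899, and 192 in replicate 1 and 102 in replicate 2. The peak therefore lay above the median signal of each list. Its summit was 156 bp before the start, in intergenic sequence, and no other gene's domain held it. Replicate summits were 4 bp apart.

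Hsp26 (FBgn0001225, chr3L:9376418-9377427) had a peak with a signal of 109 over both replicates, 67.3 in replicate 1 and 35.9 in replicate 2. In replicate 2 this was below the median of the list, and its score of 879 was the lowest of any thresholded peak at the 10 genes. The summit lay 94 bp before the outer start of Hsp26 in intergenic sequence, and replicate summits were 6 bp apart. The domain of an antisense RNA, asRNA:CR43481, also held it.

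Hsp22 (FBgn0001223, chr3L:9372931-9374964), a mitochondrial small heat shock protein, had a peak of nearly the same size at chr3L:9373352-9373647. Its signal was 110.2 over both replicates, 67.3 in replicate 1 and 50.4 in replicate 2. Unlike the peaks of Hsp26 and Hsp27, it lay away from the inner start of the gene, 497 bp before it and 569 bp after the outer start. The position is annotated both as 5' UTR of the longer Hsp22 transcript and as 3' UTR of CG4456, the gene that older names call Hsp67Bb. The domains of its neighbours CG4456, CG4461 and Hsp67Bc held the same summit, so the peak could not be assigned to 1 gene. Replicate summits were 93 bp apart, the widest gap among these peaks.

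Hsp23 (FBgn0001224, chr3L:9381882-9382765) lies between Hsp26 and Hsp27 and had no thresholded peak. Its best ranked peak had a signal of 25.8 over both replicates, with a score of 329 there and 129 in the other ranked list, and the best in each replicate had signals of 17.8 in replicate 1 and 16.9 in replicate 2. These came from different positions, inside the coding sequence in replicate 1 and 1770 bp before the start in replicate 2. Replicate 2 also had a peak of 15.9 in the coding sequence, 282 bp after the start. Across the 14.2 kb of the cluster from Hsp67Bc to Hsp27, the ranked list over both replicates held 25 peaks, of which 3 reached a score of 830. The next strongest had a signal of 47.4, in the Hsp22 coding sequence, with a score of 427. The 3 thresholded summits were 4.02 kb and 6.39 kb apart.

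**Figure D2:**
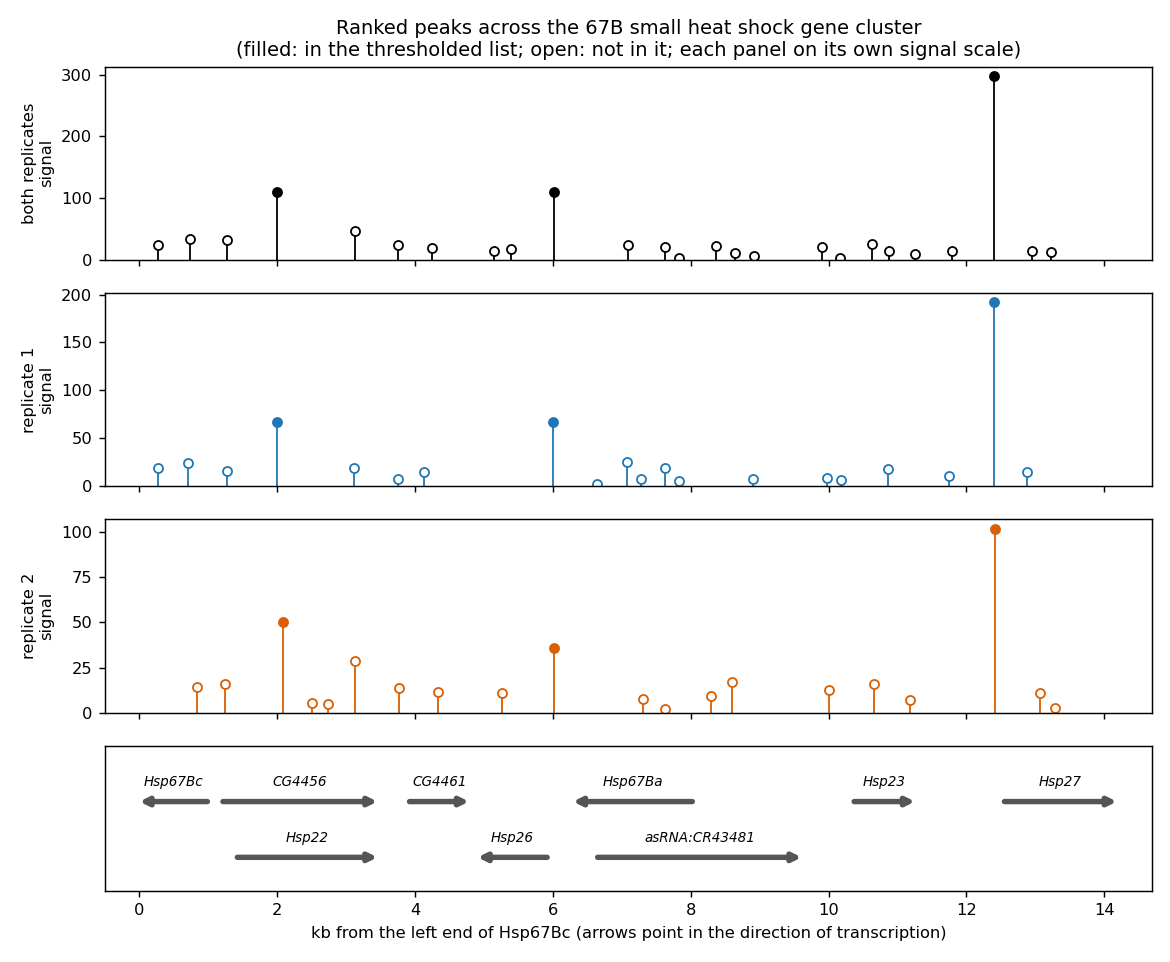
Ranked peaks across the 67B cluster by distance from the left end of Hsp67Bc (kb), with signal over both replicates, in replicate 1 and in replicate 2 on separate axes, and the genes below with arrows in the direction of transcription. Filled peaks are in the thresholded list, and the same 3 positions, at Hsp22, Hsp26 and Hsp27, are filled in all 3 panels, while Hsp23 has open peaks alone.

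Hsp83 (FBgn0001233, chr3L:3192969-3197059) encodes the cytosolic Hsp90, a chaperone of kinases and steroid receptors that is abundant without heat. It held 2 of the 5 summits, where 4.27% of protein-coding genes held 2 or more. The first, at chr3L:3193050-3193199, had a signal of 285 over both replicates, rank 114 of 2899, with 135 in replicate 1 and 149 in replicate 2. Of the 5 summits at these genes, this was the one with the higher value in replicate 2, although the scales of the 2 lists differ. It lay 90 bp before the inner start and 157 bp after the outer start, in 5' UTR of the longer transcript, and replicate summits were 5 bp apart. The second, 1163 bp further on in an intron, had a signal of 198 over both replicates, 112 in replicate 1 and 80.7 in replicate 2, with replicate summits 43 bp apart. The domain of CG14965 also held both.

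The inducible Hsp70 proteins are near absent from unheated fly cells and are made from near-identical genes, Hsp70Aa and Hsp70Ab at 87A and Hsp70Ba, Hsp70Bb, Hsp70Bbb and Hsp70Bc at 87C, on chromosome 3R. Hsp70Ba (FBgn0013277, chr3R:12465453-12467776) had a peak at chr3R:12467709-12468004 with a signal of 152 and the highest score, 1000, rank 462 in the ranked list over both replicates. This was higher than the peaks of Hsp22 and Hsp26, yet neither thresholded list over both replicates held it. Counting ranked peaks with a score of 830 or more, 5 of the 10 genes held a summit, against 18.2% of protein-coding genes. In all, 2986 ranked peaks had such a score and 87 of them were missing from the conservative list.

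The replicates differed at Hsp70Ba. Replicate 2 gave a signal of 104 and a score of 1000, rank 147 of 94514, and replicate 1 gave 46.3 and a score of 443, rank 1597 of 118653. Neither thresholded list of a single replicate held the peak, in replicate 2 despite its score. Summits lay 115 bp before the start in replicate 2 and 73 bp before it in replicate 1, and no other ranked peak lay in the domain in any list.

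Hsp70Aa (FBgn0013275, chr3R:11954163-11956544) had 0 ranked peaks in its 4.38 kb domain, in all 4 ranked lists, by the position of summits. Among protein-coding genes, 7.38% had no ranked peak over both replicates. Its neighbour Hsp70Ab (chr3R:11958535-11960909) had 1 peak, 33 bp after its start, with a signal of 54.8 and a score of 873 over both replicates, and this too was missing from the conservative list. Its score was 739 in the other ranked list. The Hsp70Ab summit lay 24 bp past the edge of the Hsp70Aa domain, and 125 bases of the peak lay inside that domain. In single replicates its signal was 25.9 with a score of 226 in replicate 1 and 28.4 with a score of 348 in replicate 2. At Hsp70Bb, Hsp70Bbb and Hsp70Bc no ranked peak in any list had a signal above 18.0.

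Whether the signal at any of these copies belongs to 1 gene cannot be told from these lists. The aligned bases of Hsp70Ba were 99.7% identical to Hsp70Bb and 94.4% to Hsp70Aa, and Hsp70Aa and Hsp70Ab differed at 1 of 2375 aligned bases. Of the 31-base words of the Hsp70Aa gene, 98.9% occurred more than once in the genome, and so did 100% of those in the 250 bp before its start. For Hsp70Ba the shares were 92.1% of the gene, 80.0% of the 250 bp before it and 74.8% of its peak. The peaks of Hsp22, Hsp26, Hsp27 and Hsp83 held 0 such words. In gene bodies, such words made up 45.8% at Hsp27 and 5.47% at Hsp83. How reads that map to several places were treated is not given in the sources used here, and its part in these values was not tested.

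**Figure D3:**
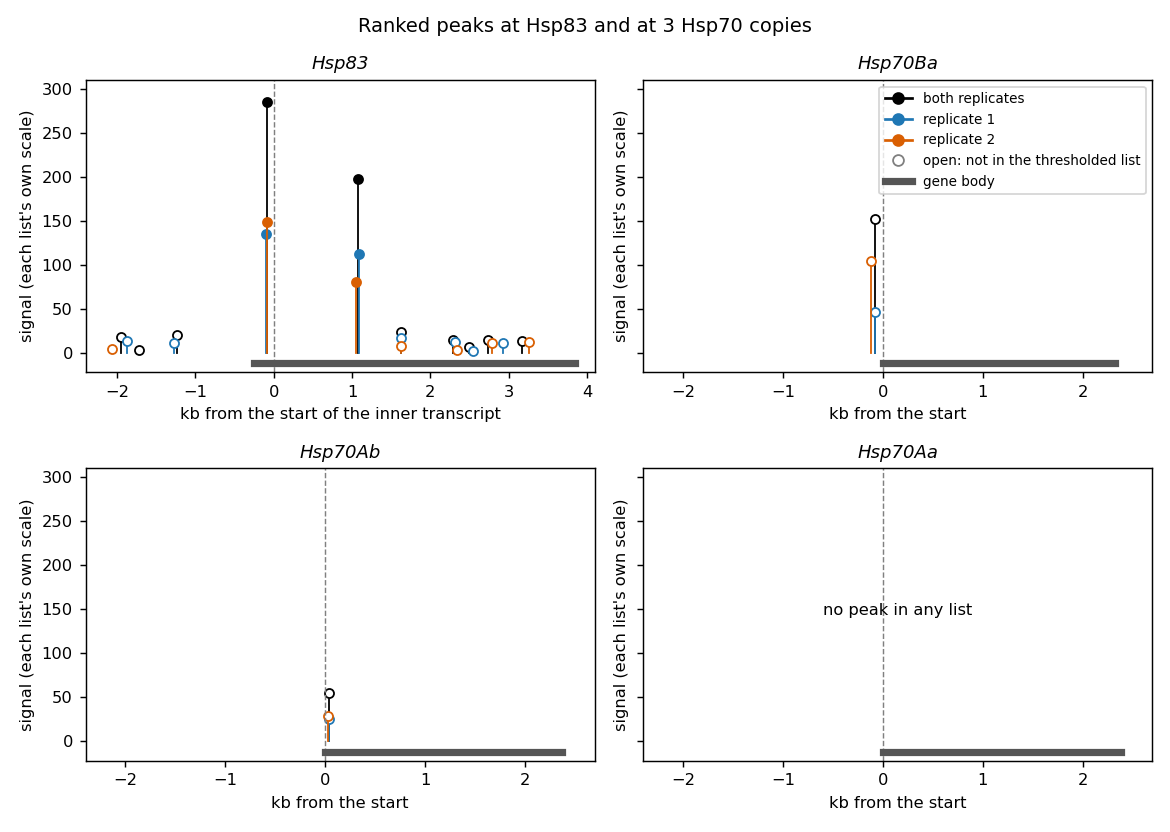
Ranked peaks at Hsp83, Hsp70Ba, Hsp70Ab and Hsp70Aa by distance from the start of the gene (kb, for Hsp83 the inner start), in the list over both replicates (black), replicate 1 (blue) and replicate 2 (orange), each on its own signal scale. Hsp83 has filled, thresholded peaks near the start and in the intron, Hsp70Ba and Hsp70Ab have 1 open peak each close to the start, and the Hsp70Aa panel is empty.

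The remaining Hsp70 relatives had weak peaks. Hsp68 (FBgn0001230, chr3R:24055080-24057310), a heat-inducible Hsp70 relative, had its strongest ranked peak in the coding sequence in both lists over the replicates. One list gave a signal of 28.0 with a score of 74 at 450 bp after the start, and the other ranked list gave 39.8 with a score of 464 at 866 bp after it, close to the best position in replicate 1. Replicate 1 gave 35.2 with a score of 541 at 863 bp after the start, and replicate 2 gave 23.9 with a score of 502 at 878 bp before it. The replicates' best positions were thus on opposite sides of the start, and 541 was the highest score of any peak of this gene in either replicate. Hsc70-4 (FBgn0266599, chr3R:15242687-15246614), the constitutive cytosolic Hsc70, had a ranked peak 27 bp after its outermost start, with a signal of 40.0 over both replicates and a score of 439, or 148 in the other ranked list. Its strongest peak had a signal of 23.9 in replicate 1 and 19.2 in replicate 2, at other positions in the gene. Near the outermost start, replicate 1 had a peak of 19.1 with a score of 218, 46 bp before it. Replicate 2 had one of 18.9 with a score of 115, 29 bp after that start.

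Hsf (FBgn0001222, chr2R:18130303-18134634), the gene of the heat shock factor itself, had 7 ranked peaks over both replicates and 10 in the other ranked list, all below the threshold. The strongest had a signal of 31.1 in an intron in both lists, and the highest score was 147, or 263 in the other ranked list. The strongest signal was 17.4 in replicate 1 and 20.4 in replicate 2. Among the 10 genes, the lowest score at or above 830 was 879, for Hsp26 in replicate 2, and the highest below it was 573, for the second peak of Hsp22 in the other ranked list over both replicates.

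Sequence words before the starts were not among the values used to select the genes. The genes were, however, listed by name as heat shock genes, and the words were chosen with earlier results known. Their shares are therefore a description. A heat shock element of 3 units without mismatch occurred in the 250 bp before a start of 4 of the 10 genes, Hsp68, Hsp70Aa, Hsp70Ba and Hsc70-4, against 0.473% of protein-coding genes. None of these 4 genes was among the 4 with a thresholded peak, although Hsp70Ba had a ranked peak with a score of 1000 over both replicates. Nothing is read from this, as the genes were selected on their peaks. With 1 mismatch of 9 fixed bases allowed, 8 of the 10 genes had an element, all except Hsp27 and Hsf, against 8.93% of protein-coding genes. Hsp27 had such elements further out, from 348 to 331 bp before the start, and Hsp23 had one without mismatch 405 bp before it. Of the 66 protein-coding genes with an element without mismatch, 9 (13.6%) had a thresholded summit within 500 bp of a start, beside 10.6% of all protein-coding genes.

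GAGAG, on either strand, occurred in the 250 bp before a start of 6 of the 10 genes, against 32.4% of protein-coding genes. The number of GAGAG matches was 8 at Hsp70Ba, 6 at Hsp70Aa and 6 at Hsp26, and 0 at Hsp27, Hsp68, Hsp83 and Hsf. Both Hsp27 and Hsp83, with the highest signals, lacked the word in this window, and Hsp27 had 3 matches further out, from 317 to 267 bp before its start. TATAAA, the word of the TATA box, occurred in 9 of the 10 genes, all except Hsf, against 48.6% of protein-coding genes. The Senseless word AAATCA occurred in 1 gene, before the outer start of Hsp83, against 34.5% of protein-coding genes.

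**Figure D4:**
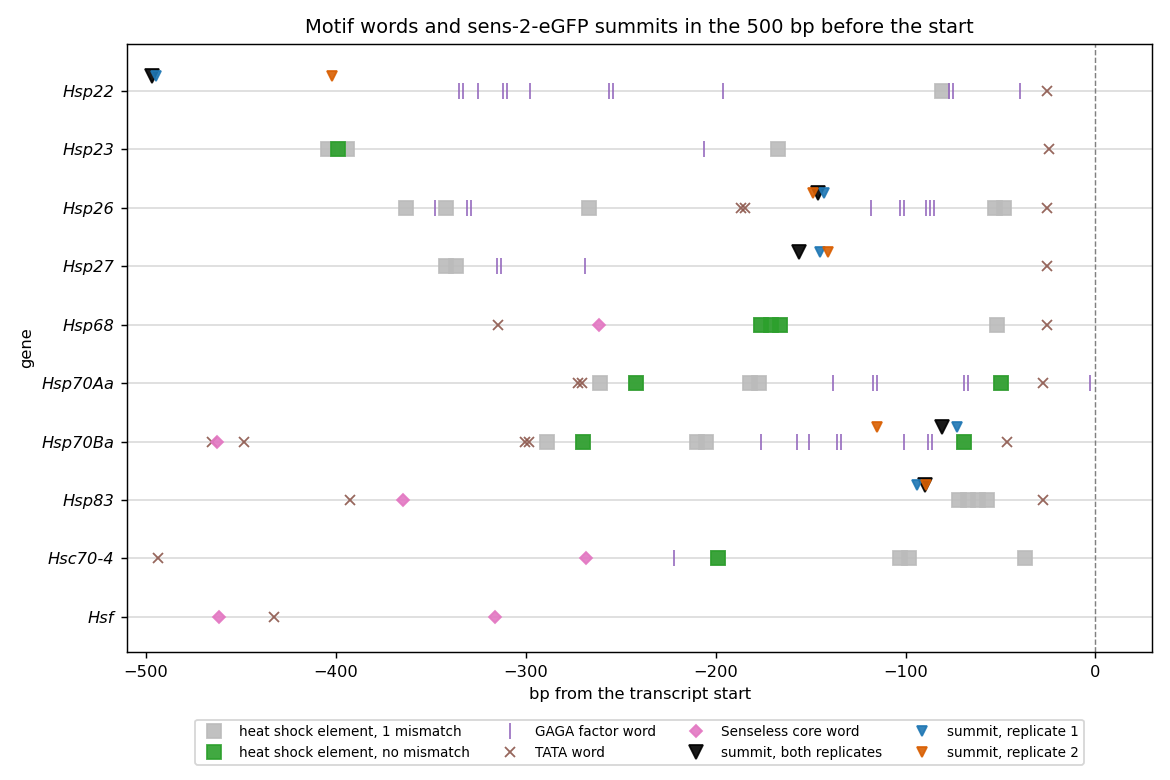
Positions of motif words and of thresholded or score-passing summits in the 500 bp before a transcript start of each gene (x axis, bp), with 1 start per gene, the one with most heat shock elements. The Hsp70Ba summit of replicate 1, with a score of 443, is shown as well. Summits (triangles) stand close to elements with 1 mismatch at Hsp83 and to an element without mismatch at Hsp70Ba. The replicate 2 summit of Hsp70Ba stands further from that element than the other triangles of this gene. Hsp23, Hsp68, Hsp70Aa and Hsc70-4 have elements without mismatch and no triangle.

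Around the summits themselves, in 101 bp centred on each, no single word was shared by all. The Hsp83 promoter summit had the 4 overlapping elements printed above, with the nearest centre 18.0 bp away. Elements with 1 mismatch allowed lay within 50 bp of 3.02% of the 2883 summits. At Hsp70Ba an element without mismatch was centred 12.0 bp from the summit over both replicates, where 0.139% of the listed summits had one within 50 bp. This element lay 75 to 63 bp before the start. The Hsp70Ba summit lay 73 bp before the start in replicate 1 and 115 bp before it in replicate 2. The Hsp26 summit had 3 GAGAG matches within 50 bp, as did Hsp70Ba, against a share of 11.7% of summits with at least 1. Hsp27, Hsp22 and Hsp83 had none there.

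AAATCA lay within 50 bp of 1 of the 5 thresholded summits, the intronic one of Hsp83, centred 22.5 bp away, while 17.9% of all 2883 summits had the word at this distance. Neither the Hsp27 summit nor those of Hsp22 and Hsp26 had it there. Base composition ranged widely. The Hsp22 window had 14.9% G and C, with 0.0694% of all summits lower, and the Hsp83 promoter window had 48.5%, with 83.1% of summits lower, while the median over all summits was 35.6%. The Hsp27 window, with 33.7%, was near that median.

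Companion genes of the heat shock system, from a list of 58 written with earlier results known, held a conservative summit in 15 cases (25.9%), beside 17.9% of all protein-coding genes. The count was 16 in the other thresholded list, 12 in replicate 1 and 11 in replicate 2. Of 8 genes listed as further small heat shock proteins, 4 held one, but CG4456, Hsp67Bc and CG4461 shared the Hsp22 peak. The Hsp22 peak therefore enters each of the totals above through CG4456, Hsp67Bc and CG4461, so nothing is read from those totals against all genes. CG4456 was listed by its older heat shock name, and its protein is related to rhodanese and not to the small heat shock proteins. CG14207, a relative of the vertebrate HspB8 named here after its value was seen, had a peak of its own with a signal of 89.6, and none in the thresholded list of replicate 2. None of the 4 further Hsp70 copies held a conservative summit.

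Co-chaperones varied, and all counts here stand beside the 17.9% of all protein-coding genes with a conservative summit. Of 10 J proteins and nucleotide exchange factors, which drive the Hsp70 cycle, 4 held a summit. The count was 3 in the other thresholded list and 3 in each replicate's list, and the gene not named here was in the conservative list alone. The strongest were mrj with a signal of 251, Tpr2 with 189 and stv with 70.8. The last of these had no summit in the thresholded list of replicate 2. Of 6 constitutive Hsp70 relatives, 1 held a summit, the mitochondrial Hsc70-5 with a signal of 80.3, and the count was 0 in replicate 2. Gp93, the Hsp90 of the endoplasmic reticulum, was the 1 of 7 Hsp90 relatives and co-chaperones, with a signal of 47.0, and the count was 0 in replicate 1. Among 12 chaperonin subunits, CCT6 was the 1 with a conservative summit, with a signal of 51.2, and neither replicate's own list held it. The other thresholded list held 3 chaperonins, and each replicate's list held 1, CCT3 in replicate 1 and CCT8 in replicate 2, both named after their values were seen.

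Of 11 genes listed as factors of heat shock promoters, a noncoding heat shock RNA among them, 4 held a summit (36.4%), beside 17.9% of all protein-coding genes. The count was 4 in the other thresholded list and 3 in each replicate's list. Of the conservative 4, the gene not named here was in no other thresholded list. Trl, the gene of GAGA factor, had a signal of 397 at a summit 1529 bp before its nearest start. Nelf-E and TH1, subunits of the complex that holds polymerase paused, had signals of 213 and 143 with summits 95 bp and 132 bp before a start.

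**Figure D5:**
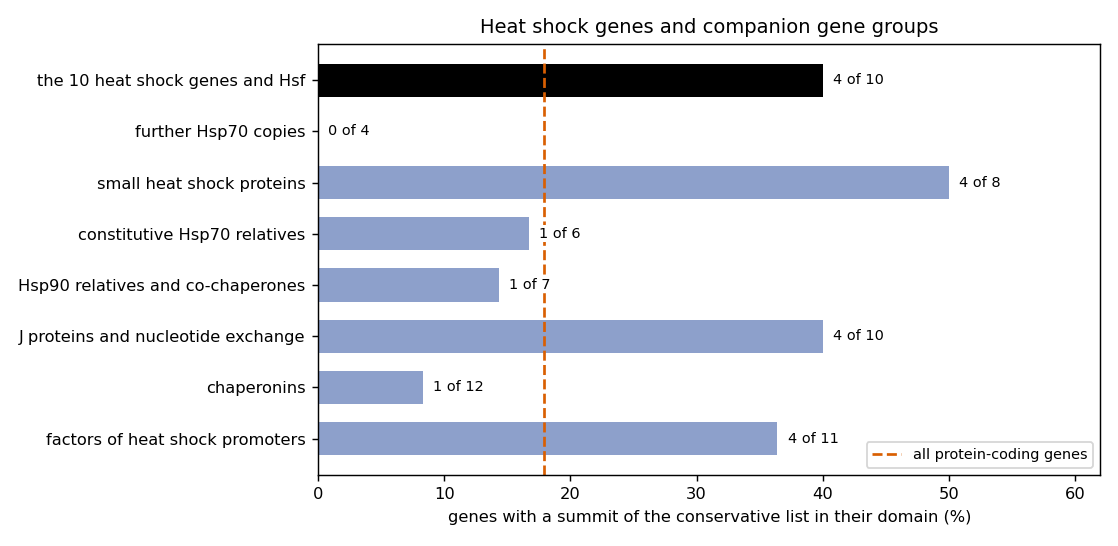
Share of genes with a conservative summit in their domain (%, bars) for the 10 heat shock genes and Hsf (black) and for 7 groups of companion genes (blue), with the share of all protein-coding genes as a dashed line at 17.9% and the counts beside the bars. The 4 of 10 heat shock genes stand right of the line, but they were selected on their peaks, so nothing is read from this. The further Hsp70 copies are at 0 of 4. The bar of the small heat shock proteins, 4 of 8, counts the Hsp22 peak through CG4456, Hsp67Bc and CG4461.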

How the data were processed

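The 10 genes, the companion lists and the words searched were chosen with earlier results of these data known. Peaks are on dm6, per the labels, in 8 deposited lists; 4 of them, ranked and thresholded, were made from single replicates, and 4 from both replicates together, per the files' descriptions by the authors. In each list the authors gave a signal per peak, on that list's scale, and a whole-number score from the irreproducible discovery rate. Aligner, peak caller and the content of a further file behind the thresholded lists were not given in the sources used here.

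Positions are 1-based. The annotation was Ensembl release 115 on BDGP 6.54, with transposable elements and pseudogenes left out, and sequence came from Release 6, where 17462 of 17465 genes of the same symbol had the same position. Words were searched on both strands with Python 3.11.15 (pandas 2.3.3, numpy 2.4.6), in the 250 bp before every start and within 50 bp of summits. Hsp70 copies were aligned with Biopython 1.88 (global, identity over aligned bases). Words of 31 bases were counted over the whole genome on both strands. Gene and word searches were checked on planted cases. Of 58 companion genes, 56 matched by symbol or alias and the others through RefSeq synonyms. All 10 genes are named, and at most 3 companions per group with the strongest peak, exceptions stated. No test was run and no SD is given, since lists have scales of their own and replicates form 1 group. Read depth is unknown, and its precision is therefore not given. Alternatives were other lists, domains, windows and element definitions.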

Additional observations from a re-analysis of the deposited data

Results flagged for a closer look

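The signal of 152 at Hsp70Ba and of 54.8 at Hsp70Ab came from ranked peaks that no thresholded list held, and were singled out because they appear in data outside the conservative list. Over both replicates their scores were 1000 and 873, above the 830 that the thresholded lists require, although Hsp70Ab had 739 in the other ranked list. The share of 31-base words found more than once in the genome was 74.8% in the Hsp70Ba peak and 88.3% in the Hsp70Ab peak. The part of these repeats in the missing peaks was not tested.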

How the results depend on the processing

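Of 43 alternative values, 35 stayed within 1.5 times the reported count. With gene bodies alone as domains, 2 of the 10 genes held a summit, 3 summits lay in their domains, and 1196 protein-coding genes held one. With peaks at or above the median signal, 1525 protein-coding genes held a summit, and the heat shock genes had 4 genes and 5 summits. In lists of a single replicate, leaving out the other, 1665 to 1888 protein-coding genes held a summit, and 4 of the 10 genes with 5 summits did in both. The 10 genes were selected on the signal and score of these peaks, so nothing is read from their unchanged counts. With 5 kb upstream, Hsp23 was added through the Hsp26 summit. A heat shock element was found at 8 genes with 1 mismatch, at 8 with 2 units (beside 16.9% of protein-coding genes) and at 2 in 150 bp (beside 0.286%). With a promoter window of 250 bp, 3 genes had a summit near a start, as the Hsp22 summit lay 497 bp from one. The share of protein-coding genes is not given for this window, so nothing is read from that count. No paired analysis was possible because the replicates form 1 group. Repeated sequence limits every value at the Hsp70 copies and may limit those in the Hsp27 gene body. Overlapping domains limit the values at 67B, and unknown depth leaves weak peaks below the threshold undecided.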

Other observations

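At 87C, a ranked peak outside the domains of the Hsp70 genes lay at chr3R:12477311-12477606, in an exon of lncRNA:alphagamma-element:CR32865, with a signal of 93.7 and a score of 1000 in the other ranked list over both replicates, and was not in the ranked partner of the conservative list. It was seen in replicate 2, with a signal of 70.6, and not in the ranked list of replicate 1. A further peak with its summit at 12470914 on chromosome 3R had a signal of 51.2 over both replicates, with a score of 88, or 998 in the other ranked list. It had a signal of 46.7 and a score of 1000 in replicate 1, and 10.6 with a score of 65 in replicate 2, where the summit was at 12470927. No thresholded list held either. Over the 46.0 kb of 87C from Hsp70Ba to Hsp70Bc, the ranked list over both replicates held 5 peaks, and 1 over the 6.75 kb of 87A.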
